A study of Mus musculus with 32 samples.

Results

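The genes described here are 8 of the 54838 in the deposited table: the kinases that make phosphatidylinositol 3-phosphate (PI3P) and phosphatidylinositol 3,5-bisphosphate, PI(3,5)P2, and the proteins that hold these kinases in complexes. They are *Pik3c2a*, *Pik3c2b*, *Pik3c2g*, *Pik3c3*, *Pik3r4*, *Pikfyve*, *Fig4* and *Vac14*, they were chosen by name for their place in the pathway, and all 8 were found. RNA of the tibialis anterior (TA), a muscle of the lower hindlimb, had been sequenced in 32 libraries from mice of the C57BL6/J background, with n=4 wild-type (WT) and n=4 *Mtm1* knockout (KO) mice at each of postnatal days 1, 14, 21 and 35 (P1, P14, P21 and P35). The KO mice carry a germline deletion in exon 4 of *Mtm1*, so the gene is disrupted in all cells of the animal and not in muscle alone, and no treatment is named for either genotype. Mice of different ages were different animals.

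PI3P is a lipid of early endosomes and autophagosomes, made from phosphatidylinositol (PI) by the class III kinase Vps34 and by class II PI 3-kinases. PIKfyve phosphorylates PI3P to PI(3,5)P2 on late endosomes and lysosomes. Myotubularin, the product of *Mtm1*, is a phosphatase that removes the phosphate at the D3 position from both lipids, and its loss causes X-linked myotubular myopathy. The genes thus stand on the synthesis side of the reaction that the KO mice lack on the other side, and the comparison asks how their transcripts stood before and during the disease.

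On GRCm38, with coordinates and exons of GENCODE M21, the class II kinases are *Pik3c2a* (chromosome 7, 116337265 to 116443449, minus strand), *Pik3c2b* (chromosome 1, 133045667 to 133108687, plus strand) and *Pik3c2g* (chromosome 6, 139587221 to 139969284, plus strand). *Pik3c3*, which encodes Vps34, lies on chromosome 18 from 30272747 to 30348126, and *Pik3r4*, which encodes its regulatory subunit Vps15, on chromosome 9 from 105642978 to 105687657, both on the plus strand. *Pikfyve* (chromosome 1, 65186683 to 65278695, plus strand) encodes the PI3P 5-kinase. *Fig4* (chromosome 10, 41188172 to 41303260, minus strand) encodes a phosphatase of PI(3,5)P2 that the kinase needs for full activity, and *Vac14* (chromosome 8, 110618585 to 110720398, plus strand) encodes the scaffold that joins both to the complex. Counts were assigned to whole genes, exons and untranslated regions together. All but 1 of the genes could be counted from sequence that was unique or nearly so. In *Pik3c2a*, 12.6% of the 50-base stretches of its transcripts also occurred in other genes, most of them in the antisense gene *Gm44777*, whose counts reached 36 in a library at most.

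In the libraries, *Mtm1* was lower in every KO library than in every WT library of its age. At P35 the KO libraries read 3.71, 3.95, 3.32 and 3.78 CPM (counts scaled by TMM to a library of common size) and the WT libraries 21.5, 20.7, 24.9 and 21.4 CPM. The gene did not reach 0. Counts cover the whole gene, and where in *Mtm1* the remaining reads lay was not tested. Library totals lay between 49321035 and 85631408 counts. Markers of muscle fibers had the highest median sum of the cell type markers in every group, and all 10 of them were detected. The lists differ in length, and the P1 tissue was mixed. At P1 the 10 fiber markers summed to 21400 to 40200 CPM, the 6 fibroblast markers to 13200 to 24000 and the 5 keratinocyte markers to 1510 to 5790. 1 library stood apart: KO replicate 4 of P1 had 3.91 CPM of *Mtm1* against 2.32 to 2.45 CPM in the other KO libraries of its age, and it read below the other 7 libraries of P1 in the summed markers of fibers (21400 against 28700 to 40200 CPM), fibroblasts (13200 against 17600 to 24000), endothelium (260 against 363 to 420), macrophages (97.7 against 102 to 128), Schwann cells (178 against 214 to 291) and satellite cells (15.4 against 21.2 to 28.8). Its keratinocyte, adipocyte and red blood cell sums lay within the range of the other libraries. Fold changes and ratios that involve P1 in KO are therefore also given without it.

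Expression per exon length set the abundant members apart from the scarce ones. In WT muscle at P35, *Pik3c3* (4.83 ± 0.166 CPM per kb, SD, n=4), *Pik3c2b* (4.48 ± 0.549) and *Fig4* (3.79 ± 0.192) stood highest, followed by *Vac14* (3.4 ± 0.195). *Pik3c2a* (1.94 ± 0.164 CPM per kb) and *Pik3r4* (1.92 ± 0.169) stood lower, and *Pikfyve* (0.706 ± 0.0566) lower still. *Pik3c3*, *Pik3c2b* and *Fig4* overlapped between neighbors in this order, as did *Pik3c2a* and *Pik3r4*, while the libraries of all other neighbors did not overlap. At P1 the WT order was similar, with *Pik3c3* at 3.49 ± 0.195, *Fig4* at 3.44 ± 0.166 and *Pik3c2b* at 3.23 ± 0.272 CPM per kb, all overlapping, and *Pikfyve* at 0.685 ± 0.0141. In both sets *Pik3c3* had more transcript per length than its partner *Pik3r4*, and *Pikfyve* had less than *Fig4* and *Vac14*. This order rests on the length, which merges the exons of all annotated transcripts: 19211 bases for *Pikfyve* and 3282 for *Fig4*. In mean CPM without the length, WT at P35 held 13.6 of *Pikfyve* and 12.4 of *Fig4*, and 18.5 of *Pik3r4* and 21.6 of *Pik3c3*. The order in KO muscle at P35 was different in its upper part: *Pik3c2b* (4.97 ± 0.361 CPM per kb), *Vac14* (4.93 ± 0.668) and *Pik3c3* (4.52 ± 0.153) overlapped at the top, and *Pik3c2a* (1.15 ± 0.16) stood below *Pik3r4* (1.7 ± 0.0615) without overlap. *Pik3c2g*, a class II kinase best known from liver, was near the limit of detection after P1, with 0 to 4 counts in each of the 24 later libraries.

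**Figure D1:**
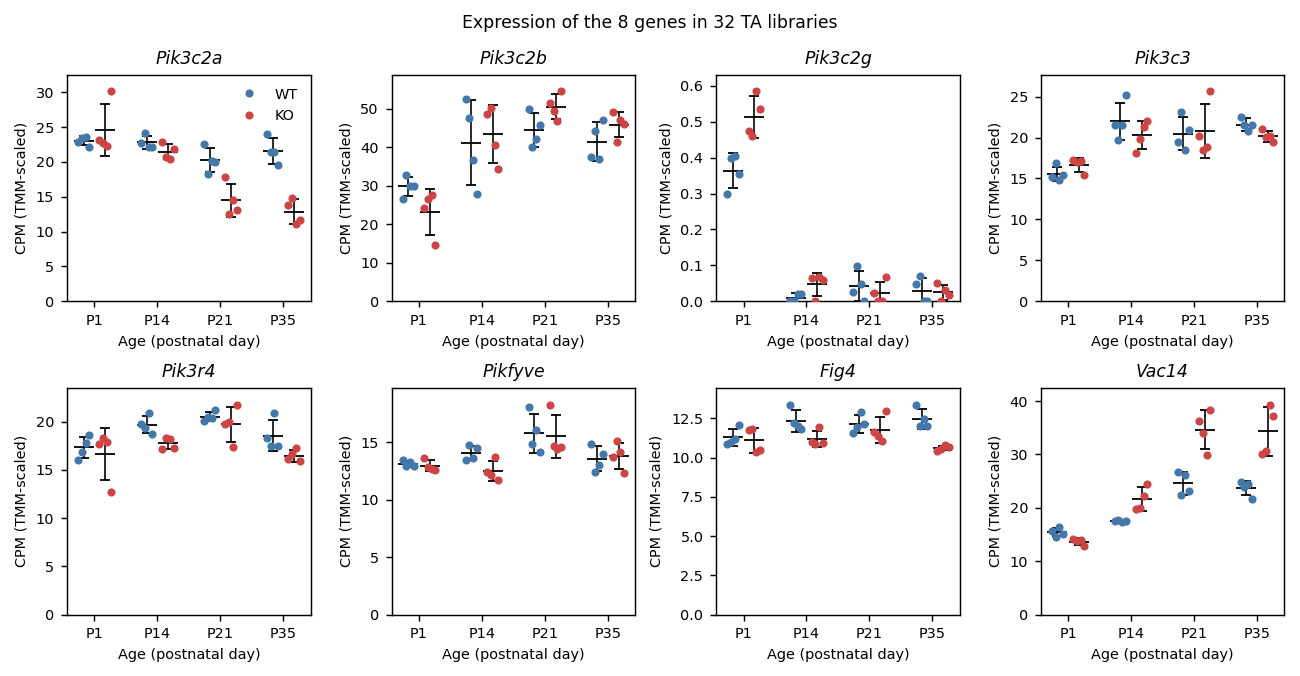
CPM of each gene (vertical axis, TMM-scaled) by age (horizontal axis, postnatal day) in the 4 WT (blue) and 4 KO (red) libraries of each age. Points are libraries and black marks are the mean ± SD; the KO points lie below the WT points for *Pik3c2a* and above them for *Vac14* at P21 and P35, and *Pik3c2g* is seen at P1, between 0.298 and 0.585 CPM.

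KO was compared with WT at each age by edgeR's quasi-likelihood test over all genes, and a gene was called at an adjusted P-value under 0.01 together with an absolute log2 fold change over 0.585, a 1.5-fold change. Of the 8 genes, *Pik3c2a* at P35 was called and no other gene at any age. At P1, 0 of 8 were called, against 0.0442% of 18100 genes tested, and 2 had an unadjusted P under 0.05 (*Pik3c2g* and *Vac14*). *Mtm1* itself was not called at P1, with means of 2.77 CPM in KO and 5.51 CPM in WT. The test thus missed a difference of that size at this age. At P14, 0 of 7 were called (0.0318% of 15728 genes, which is 5 genes, or 98 when blocked by replicate number), and 3 had an unadjusted P under 0.05 (*Vac14*, *Pik3r4* and *Pikfyve*). At P21, again 0 of 7 were called (4.67% of 15179 genes), and 3 had an unadjusted P under 0.05 (*Vac14*, *Pik3c2a* and *Pik3c2b*). At P35, 1 of 7 was called (16% of 15595 genes, and 7.52% when lower genes alone are counted), and *Pik3c2a*, *Vac14* and *Fig4* had an unadjusted P under 0.05. The share of all genes under an unadjusted 0.05 was not computed, here or in the comparisons below. Counts at that cut are therefore not to be set against the shares of called genes. DESeq2 gave the same counts of 0, 0, 0 and 1. At an adjusted P under 0.05 and any fold, *Pik3c2a* and *Vac14* passed at P21 (2 of 7, against 21.0% of genes) and at P35 (2 of 7, against 41.4%). *Pik3c2g* had too few counts for the test from P14 on.

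Counted by overlap instead, the WT and KO libraries were fully apart for 2 of 8 genes at P1 (8.62% of all genes tested), for 2 of 7 at P14 (4.84%), for 2 of 7 at P21 (24.7%) and for 4 of 7 at P35 (39.6%). Without KO replicate 4 of P1 the first count was 3 of 8, with *Pik3c3* added, against 14.8% of all genes. *Vac14* was among them at each age. The others were *Pik3c2g* at P1, *Pik3r4* at P14, *Pik3c2a* at P21, and *Pik3c2a*, *Pik3r4* and *Fig4* at P35. The median log2 fold change of the 7 genes tested was -0.07 at P35, beside 0.04 over all genes tested.

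*Pik3c2a* encodes the ubiquitous class II kinase PI3K-C2α, known for its part in clathrin-coated pits and endosomes, and *Vac14* is the scaffold described above. As their transcripts carried the largest differences, the 150 bases before the RefSeq start of each gene are shown (RefSeq sequences of GRCm38.p6, each 5′ to 3′ on the strand of its gene; *Vac14* chr8:110618417-110618566, plus strand; *Pik3c2a* chr7:116443459-116443608, minus strand), with CCAAT and GGGCGG in capitals wherever either strand holds them.
Vac14: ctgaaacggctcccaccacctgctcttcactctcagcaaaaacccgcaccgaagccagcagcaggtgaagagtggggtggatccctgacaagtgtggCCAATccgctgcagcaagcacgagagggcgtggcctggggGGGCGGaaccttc
Pik3c2a: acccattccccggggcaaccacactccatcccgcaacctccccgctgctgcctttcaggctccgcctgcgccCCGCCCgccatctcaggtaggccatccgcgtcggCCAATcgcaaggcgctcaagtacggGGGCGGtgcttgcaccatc
Both stretches were rich in G and C (62.7% in *Vac14*, 68.7% in *Pik3c2a*). CCAAT began 53 bases before the start of *Vac14* and 44 bases before that of *Pik3c2a*, and GGGCGG, the core of a GC box, occurred once in *Vac14* and 2 times in *Pik3c2a*. Over windows of 250 bases before to 50 after the start, searched on both strands, CCAAT was held by 6 of the 7 members with a sequence and by 37.4% of 32851 promoters, and GGGCGG by 5 of 7 and by 35.7%. TATAAA was found in 2 of 7 (*Pik3c2g* and *Vac14*, against 13.6% of promoters), and CACGTG in 1 of 7, *Vac14* (against 7.15%). A member counted if any of its listed starts held the letters, whereas the percentages are over single starts, so the measures are not alike. These letters were chosen after the sequences had been seen, overlap no other motif searched, and say nothing of which factors bind.

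In WT muscle *Pik3c2a* stayed near one level from P1 on in TMM-scaled CPM. On library totals it was lower at P14 than at P1, as were all members tested in WT. WT libraries read 22.9, 23.5, 23.6 and 22.2 CPM at P1 and 23.97, 21.4, 21.4 and 19.5 CPM at P35. KO libraries read 23.1, 22.8, 22.2 and 30.1 CPM at P1 and 22.9, 20.7, 20.4 and 21.9 CPM at P14, where they overlapped with the 22.8, 24.1, 22.1 and 22.2 CPM of WT. The 1 high value at P1 was that of the library that stood apart.

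At P21 the WT libraries held 22.5, 18.3, 20.1 and 19.99 CPM of *Pik3c2a* and the KO libraries 17.8, 12.5, 14.5 and 13.03 CPM. Every KO library was now below every WT library, by a narrow gap. The log2 fold change was -0.47 (SE 0.114, 95% interval -0.73 to -0.22, adjusted P=0.0175 by edgeR), which did not pass the threshold. At P35 the KO libraries held 13.8, 14.8, 11.1 and 11.6 CPM, all well below WT. *Pik3c2a* fell by 0.72 on the log2 scale (SE 0.114, 95% interval -0.98 to -0.47, edgeR adjusted P=0.00112), to 0.606 of the WT level. At P1 and P14 the log2 fold changes were 0.11 (SE 0.0989) and -0.09 (SE 0.0605), and without KO replicate 4 that of P1 was -0.01 (SE 0.0445).

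*Pik3c2b* encodes the second class II isoform, PI3K-C2β, which has been studied in mice as a genetic partner of *Mtm1*. It had the highest mean CPM per kb of the class II transcripts in all 8 groups, overlapping with *Pik3c2a* in KO at P1, and it was not called at any age. WT libraries held 26.7, 32.8, 29.9 and 29.9 CPM at P1 and KO libraries 24.2, 26.5, 27.7 and 14.6 CPM, with the lowest value in the library that stood apart. The log2 fold change of -0.35 (SE 0.176, adjusted P=0.51) was -0.18 (SE 0.0737) without it. By P35 these values were 37.4, 44.2, 36.9 and 47.1 CPM for WT and 49.1, 41.3, 47.2 and 46.01 CPM for KO, overlapping, and KO was 0.17 above WT on the log2 scale (SE 0.0963, adjusted P=0.175). At P21 it was 0.20 (SE 0.076, adjusted P=0.0962).

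P14 was the age at which *Pik3c2b* varied most between mice. WT libraries read 52.5, 47.6, 36.8 and 27.9 CPM and KO libraries 48.7, 50.3, 40.7 and 34.2 CPM, so WT and KO libraries of the same number were close while the mice of 1 genotype spanned a wide range. The log2 fold change was 0.08 (SE 0.201), and blocking by replicate number gave 0.10 (SE 0.0584, adjusted P=0.378).

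The third class II gene, *Pik3c2g*, had measurable counts at P1 alone. There the WT libraries held 28, 35, 41 and 38 counts and the KO libraries 63, 50, 50 and 60 counts, which is 0.298, 0.401, 0.404 and 0.354 CPM against 0.473, 0.460, 0.585 and 0.535 CPM. All 4 KO libraries were above all 4 WT libraries, yet the log2 fold change of 0.51 (SE 0.175, adjusted P=0.338 by edgeR) did not pass the test. Without KO replicate 4 it was 0.48 (SE 0.178). At P14 the summed counts were 2 in WT and 11 in KO, at P21 they were 7 and 4, and at P35 they were 5 and 6, all of which is too low for a comparison at this depth.

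*Pik3c3* and *Pik3r4* encode the catalytic and the regulatory subunit of the class III complex, and neither was called at any age. For *Pik3c3*, the libraries of all groups lay between 14.9 and 25.6 CPM, and at P35 between 20.8 and 22.6 CPM for WT and 19.4 and 21.1 CPM for KO. Its log2 fold changes were 0.11 (SE 0.0637, or 0.15 and SE 0.0537 without KO replicate 4) at P1, -0.12 (SE 0.0901) at P14, 0.03 (SE 0.116) at P21 and -0.07 (SE 0.0656) at P35, with overlapping libraries each time except at P1 without that replicate. The 95% interval at P35, from -0.22 to 0.07, leaves room for a change smaller than 1.5-fold.

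*Pik3r4* had lower means in KO from P14 on, by small amounts. At P14 the WT libraries read 19.8, 19.4, 20.9 and 18.7 CPM, and KO libraries 17.2, 18.3, 18.2 and 17.3 CPM, without overlap. The log2 fold change was -0.15 (SE 0.0552, adjusted P=0.647 by edgeR). The P35 libraries read 18.4, 17.4, 20.9 and 17.5 CPM for WT and 16.1, 16.6, 17.2 and 15.9 CPM for KO, again apart, a difference of -0.15 on the log2 scale (SE 0.0821, adjusted P=0.176). At P1 it was -0.04 (SE 0.115), and 0.07 (SE 0.0577) without the library that stood apart, which held 12.7 CPM against 17.7 to 18.3 CPM in the other KO libraries. Its fold change at P21 was -0.05 (SE 0.0788).

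*Pikfyve* itself showed no difference that passed the test. WT libraries held between 12.4 and 18.1 CPM over all ages and KO libraries between 11.7 and 18.3 CPM. The log2 fold changes were -0.01 (SE 0.0566) at P1 (0.01, SE 0.0532, without KO replicate 4), -0.17 (SE 0.0686, adjusted P=0.677) at P14, -0.02 (SE 0.102) at P21 and 0.06 (SE 0.0944) at P35, and at each age the libraries overlapped. At P35 the 95% interval ran from -0.16 to 0.27.

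For *Fig4*, differences up to P21 were small, with log2 fold changes of -0.01 (SE 0.0716) at P1 (0.02, SE 0.0685, without KO replicate 4), -0.15 (SE 0.0664, adjusted P=0.742) at P14 and -0.04 (SE 0.0809) at P21. At P35 the WT libraries read 13.3, 11.98, 12.5 and 12.01 CPM, and KO libraries 10.4, 10.5, 10.8 and 10.7 CPM. KO was below WT in every library and the 4 KO values lay within a range of less than 1 CPM, so a small difference stood outside the spread. KO stood at 0.866 of WT, a log2 fold change of -0.21 whose SE was 0.0755 (adjusted P=0.051 by edgeR).

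*Vac14* differed more between the genotypes than its partners did. At P1 the WT libraries held 15.7, 14.6, 16.4 and 15.1 CPM, and KO libraries 14.1, 13.7, 14.02 and 12.8 CPM, with KO below WT in each library. At P14 it was the reverse, with 17.5, 17.8, 17.3 and 17.6 CPM for WT and 19.7, 20.04, 22.2 and 24.5 CPM for KO. The WT libraries of P14 lay within 1 CPM of each other, and the lowest KO library was above all of them.

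The same side was kept later. WT libraries held 26.8, 22.4, 26.2 and 23.1 CPM of *Vac14* at P21 and KO libraries 36.3, 33.98, 29.9 and 38.4 CPM. At P35 WT held 24.8, 23.9, 24.4 and 21.7 CPM and KO 30.2, 30.6, 39.3 and 37.2 CPM, so that the groups were apart by more than 3 CPM at both ages. Log2 fold changes were -0.16 (SE 0.0636, adjusted P=0.397) at P1, 0.30 (SE 0.0742, adjusted P=0.344) at P14, 0.50 (SE 0.093, adjusted P=0.00589) at P21 and 0.56 (SE 0.0998, 95% interval 0.34 to 0.78, adjusted P=0.00206) at P35, all by edgeR. The 2 later values passed the P-value threshold, as 8.13% and 24.5% of all genes did, and stayed under the 1.5-fold limit, at 1.42 and 1.47 times WT. Without KO replicate 1 or KO replicate 2 of P35, the last was 0.61 (adjusted P=0.00264) or 0.61 (adjusted P=0.00261) and was called. With each library of P35 left out in turn, it ranged from 0.477 to 0.613, so other omissions lowered it. Blocking by replicate number at P14, where same-numbered libraries deviate together, gave 0.29 (SE 0.0595, adjusted P=0.0212), and without KO replicate 4 of P1 the first was -0.13 (SE 0.0577).

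**Figure D2:**
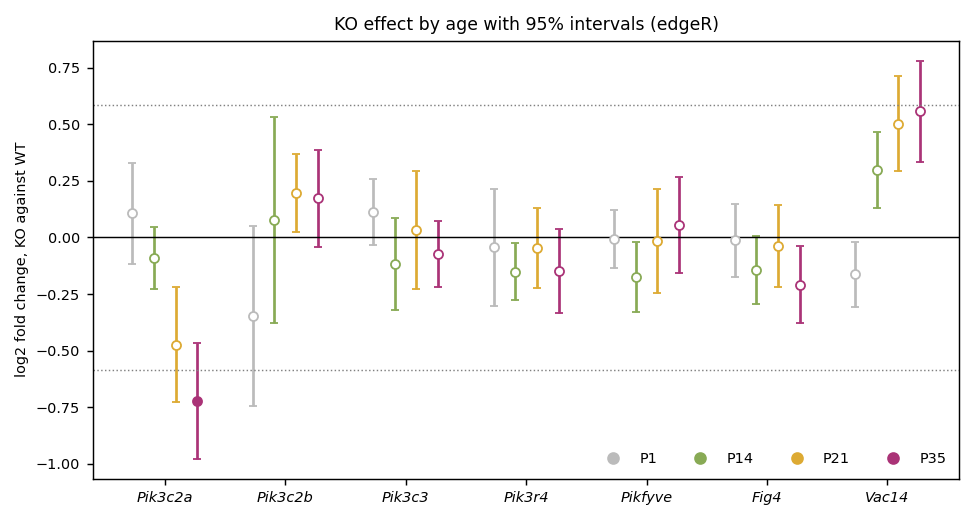
Log2 fold change of KO against WT (vertical axis) for the 7 genes tested at all ages, with 1 color per age. Points are edgeR estimates with 95% intervals, filled where called, and dotted lines mark a 1.5-fold change. *Pik3c2a* moves down to -0.72 and *Vac14* up to 0.56 at P35, where *Pik3c3* and *Pikfyve* lie near 0. *Pikfyve* is at -0.175 at P14.

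Bulk RNA does not separate fewer cells of a type from less RNA per cell. At P35, the summed CPM of all 10 fiber markers was 127000 to 175000 in WT and 90300 to 115000 in KO, of 5 endothelial markers 311 to 578 and 272 to 339, of 3 satellite cell markers 7.35 to 10.1 and 2.89 to 3.69, of 6 macrophage markers 43.6 to 58.7 and 61.7 to 87.4, and of 4 adipocyte markers 1.98 to 8.35 and 12.7 to 48.3. Every marker on these lists was detected in both groups, and their part in the *Pik3c2a* and *Vac14* differences was not tested. At P21 the fiber sum was 161000 to 209000 CPM in WT and 143000 to 157000 in KO, the endothelial sum 534 to 816 and 417 to 509, the satellite cell sum 10.7 to 13.5 and 4.85 to 6.93, and the macrophage sum 42.3 to 48.6 and 57.9 to 73.6, each without overlap.

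Whether the KO effect itself differed from age to age was tested by interaction terms of a fit to all 32 libraries, called at an adjusted P under 0.01. From P1 to P14, 0 of 8 genes were called (0.0161% of 18583 genes), and 1 had an unadjusted P under 0.05, *Vac14* (difference 0.48, SE 0.123, adjusted P=0.333, and 0.44, adjusted P=0.46, without KO replicate 4 of P1). From P14 to P21, 0 of 8 were called (0.425%), with 2 under an unadjusted 0.05, *Pik3c2a* (difference -0.40, SE 0.148, adjusted P=0.205) and *Pik3c2g*, whose counts were too few for a reading. From P21 to P35, 0 of 8 were called (0.463%) and 0 had an unadjusted P under 0.05. DESeq2 called 0 in these 3 steps. Between the first and the last age, a contrast added after seeing the data, 2 of 8 were called (15.9% of genes): *Pik3c2a* with a difference of -0.84 (SE 0.147, adjusted P=0.000115) and *Vac14* with 0.71 (SE 0.123, adjusted P=0.000101). Without KO replicate 4 of P1 these were -0.74 (adjusted P=0.000219) and 0.67 (adjusted P=0.000264).

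Next, consecutive ages were compared within each genotype by the same test and thresholds. From P1 to P14 in WT, 1 of 8 genes was called (55.1% of 17435 genes), and in KO 3 of 8 (52.6% of 17719). From P14 to P21, 0 of 7 were called in WT (5.53% of 15337) and 2 of 7 in KO (7.04% of 15585), and 2 had an unadjusted P under 0.05 in WT. From P21 to P35, 0 of 7 were called in WT (2.45% of 15039) and 0 of 7 in KO (4.01% of 15734), with 1 gene under an unadjusted 0.05 in each, *Pikfyve* in WT and *Pik3r4* in KO. At an adjusted P under 0.05 and any fold, 5 of 8 passed from P1 to P14 in WT (79.4% of genes) and 1 of 7, *Vac14*, from P14 to P21 (25.6%). DESeq2 called the same numbers except 1 in place of 2 from P14 to P21 in KO. These steps rest on the scaling: from P1 to P14 the genes tested had a median change of -0.08 (log2) in WT and -0.09 in KO with TMM, and -0.85 and -0.81 on library totals, where all members tested in WT were lower at P14. In KO on library totals, *Pik3c2b* was 0.20 and *Vac14* -0.09, and neither was called. Measured from the median of all genes tested, no member changed direction between TMM and library totals in any comparison of 2 groups. That follows from a shift shared by all genes and does not tell which scaling is right.

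*Pik3c2g* was the member lost after birth. Its summed counts over the 4 WT libraries went from 142 at P1 to 2 at P14, a ratio of 39.8 after scaling (95% counting interval 10.8 to 332), and over the KO libraries from 223 to 11, a ratio of 10.9 (6.0 to 22.2). By these counts it fell in both genotypes. The edgeR adjusted P-values were 8.29e-06 in WT and 0.000113 in KO (0.000279 without KO replicate 4 of P1). The gene passed the expression filter only through its P1 libraries, so these P-values add no separate support to the counts. The tissue samples differed between these ages in more than the muscle: the 5 keratinocyte markers summed to 1510 to 5790 CPM at P1 and to 2.91 to 3.55 CPM at P14, 4 of the 5 being detected in WT at P14 and all 5 in KO, the 4 adipocyte markers to 41.5 to 136 and 0.912 to 11.5 CPM, and the fiber markers to 21400 to 40200 and 127000 to 190000 CPM. Their part in the loss of *Pik3c2g* was not tested.

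*Pik3c2b* had higher means at P14 than at P1 in both genotypes. In KO it rose 1.84-fold from P1 to P14 (log2 fold change 0.88, SE 0.199, adjusted P=0.00272), or by 0.71 (SE 0.136, adjusted P=0.00162) without KO replicate 4 of P1. In WT the step was 0.46 (SE 0.171, adjusted P=0.0324), and 0.61 (SE 0.111, adjusted P=0.000775) without WT replicate 4 of P14, which held 27.9 CPM. On library totals the WT step turned to -0.291 (SE 0.212), so its direction rests on the scaling. The steps differed between the genotypes by 0.44 (SE 0.23, adjusted P=0.80 for the interaction), and by 0.27 (adjusted P=0.89) without KO replicate 4 of P1.

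*Pik3c3* had 3.49 ± 0.195 CPM per kb at P1 and 4.92 ± 0.509 CPM per kb at P14 in WT (SD, n=4), without overlap. Its log2 fold change of 0.49 (SE 0.0818, adjusted P=0.000361) was under the 1.5-fold limit, and in KO it was 0.26 (SE 0.0844, adjusted P=0.0193), or 0.22 (SE 0.079) without KO replicate 4 of P1. On library totals these steps turned to -0.289 in WT (edgeR adjusted P=0.0015) and -0.461 in KO (edgeR adjusted P=0.000335), so their direction rests on the scaling. *Pik3r4* gave 0.17 (SE 0.0641) in WT and 0.06 (SE 0.117) in KO, *Pikfyve* 0.09 (SE 0.0584) and -0.08 (SE 0.081), and *Fig4* 0.12 (SE 0.0663) and -0.02 (SE 0.0857). None of these 3 was called with TMM, and without KO replicate 4 of P1 their KO steps were -0.05 (SE 0.0596), -0.09 (SE 0.0787) and -0.05 (SE 0.0812). Their WT steps turned to -0.596, -0.681 and -0.65 on library totals.

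*Vac14* changed in both of the early steps in KO. It rose 1.55-fold from P1 to P14 (log2 fold change 0.63, SE 0.0889, adjusted P=0.000135, a direction that turned to -0.09 on library totals) and 1.58-fold from P14 to P21 (0.66, SE 0.096, adjusted P=0.00206). In WT the steps were 0.17 (SE 0.0572, adjusted P=0.0189) and 0.48 (SE 0.0737, adjusted P=0.00269), both under the 1.5-fold limit. The earlier WT step turned to -0.599 on library totals. The steps differed between the genotypes by 0.48 (SE 0.123, adjusted P=0.333 for the interaction) and 0.19 (SE 0.123, adjusted P=0.562), so a difference between them did not pass the test. Without KO replicate 4 of P1 the first KO step was 0.60 (SE 0.0884, adjusted P=0.000373). Without KO replicate 4 of P14 it was 0.58, at the limit, and without KO replicate 2 of P14 the second had an adjusted P of 0.0105. From P21 to P35 the changes were 0.00 (SE 0.111) in KO and -0.07 (SE 0.0815) in WT.

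*Pik3c2a* fell in KO from P14 to P21, by 0.59 on the log2 scale (SE 0.11, adjusted P=0.00605), to 0.666 of its P14 level. This call stood at the fold limit and was lost when any 1 of 7 of the 8 libraries was left out. In WT the same step was -0.18 (SE 0.0718, adjusted P=0.0884). From P21 to P35 it was -0.16 (SE 0.139) in KO and 0.08 (SE 0.0855) in WT. *Pikfyve* was higher at P21 than at P14 in KO, by 0.29 (SE 0.0953, adjusted P=0.0463), and by 0.15 (SE 0.0846) in WT.

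A ratio of 2 genes within a library does not depend on how libraries are scaled to each other. Therefore, 4 ratios of partner genes were compared at 4 ages by exact permutation of the 8 libraries of an age (two-sided, 70 assignments, smallest possible p 0.0286, 16 tests). In 9 of the 16 the genotypes did not overlap and p was 0.0286, which became 0.0508 after Benjamini-Hochberg adjustment, so the exact permutation tests could not place any of them under 0.05. Most of these 9 had *Vac14* as the denominator and so share its difference between the genotypes. The share of other gene pairs whose ratios do not overlap was not computed.

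Between the class II isoforms the ratio was lower in KO at the later ages. The log2 ratio of *Pik3c2a* to *Pik3c2b* counts was -1.14 ± 0.0501 in WT and -1.82 ± 0.249 in KO at P21 (SD, n=4), a difference of -0.68 with 4 of 4 KO libraries below all WT libraries. At P35 it was -0.94 ± 0.28 in WT and -1.84 ± 0.268 in KO, a difference of -0.91, again without overlap. At P1 the difference was 0.48 (exact permutation p=0.0571), and 0.17 without KO replicate 4, and at P14 it was -0.19 (exact permutation p=0.457).

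In the PIKfyve complex, both partners were lower relative to the scaffold in KO from P14 on. At P14, P21 and P35 the log2 ratio of *Pikfyve* to *Vac14* was lower in all KO than in all WT libraries (differences -0.47, -0.52 and -0.50). At P1 it was higher in KO by 0.16, and 0.14 (exact permutation p=0.0571) without KO replicate 4. *Fig4* to *Vac14* showed the same later differences, -0.44 at P14, -0.54 at P21 and -0.76 at P35, each without overlap, and 0.15 at P1 (exact permutation p=0.114), or 0.14 (exact permutation p=0.143) without KO replicate 4. For the catalytic and regulatory subunits of the class III complex no difference was detected: *Pik3c3* to *Pik3r4* had differences of 0.17, 0.04, 0.08 and 0.07 at the 4 ages in order, with overlap and exact permutation p-values of 0.229, 0.714, 0.486 and 0.60. Without KO replicate 4 the first was 0.08 (exact permutation p=0.371), as that library stood at 0.28 and the other KO libraries of P1 at -0.11 to -0.04.

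**Figure D3:**
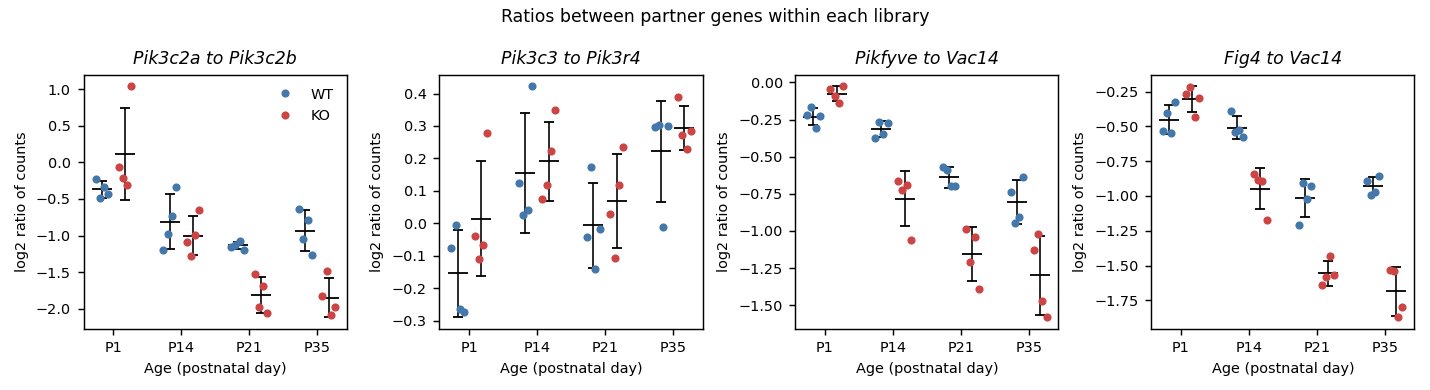
Log2 ratio of the counts of 2 partner genes in each library (vertical axis) by age (horizontal axis, postnatal day), WT in blue and KO in red; black marks are the mean ± SD of 4 libraries. KO lies below WT without overlap for *Pik3c2a* to *Pik3c2b* at P21 and P35 and for both ratios to *Vac14* from P14 on, while *Pik3c3* to *Pik3r4* overlaps at each age.

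The ratios matter because the scaling between libraries moved the fold changes. TMM factors were 0.726 to 0.763 in WT and 0.961 to 1.05 in KO at P35, and 0.729 to 0.84 and 0.88 to 0.922 at P21. With library totals alone the median over all genes tested at P35 went from 0.04 to 0.44, and 4350 of 4676 called genes were higher in KO, against 1324 of 2496 with TMM. *Pik3c2a* was then -0.32 (SE 0.125, adjusted P=0.0506) and no longer called, and *Vac14* was 0.96 (SE 0.101, adjusted P=7.41e-05) and called. *Pik3c3*, *Pik3r4* and *Fig4* turned to 0.33, 0.26 and 0.20. Relative to the median of all genes, all 5 kept their distance and direction: -0.76 with TMM and -0.76 with totals for *Pik3c2a*, 0.52 and 0.52 for *Vac14*, -0.11 and -0.11 for *Pik3c3*, -0.18 and -0.18 for *Pik3r4* and -0.24 and -0.24 for *Fig4*. A change of scaling moves all genes of a library nearly alike, so these distances were bound to stay. They do not tell which scaling is right. At P21 *Vac14* was 0.69 (adjusted P=0.000958) on library totals and was called. With the size factors of DESeq2 (RLE), the calls were those of TMM.

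**Figure D4:**
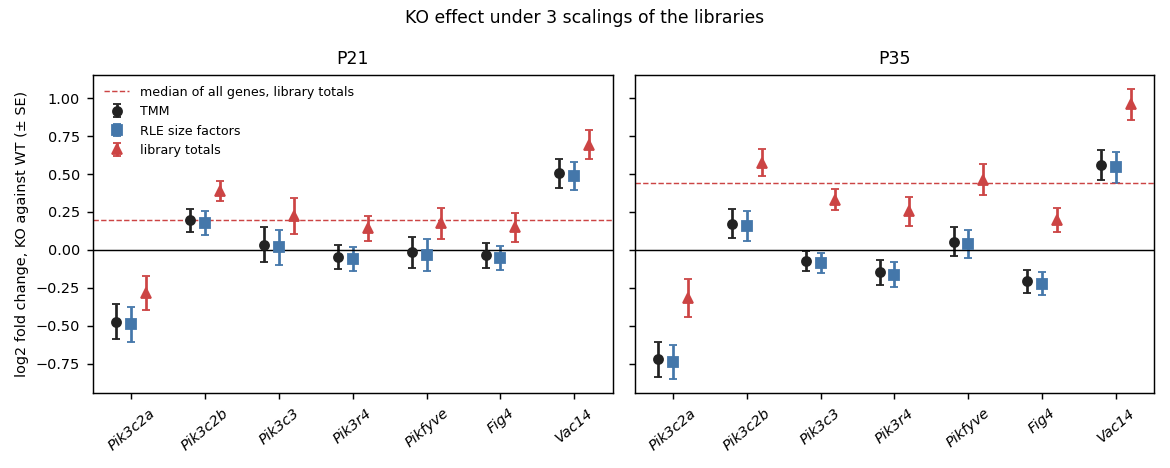
Log2 fold change of KO against WT (vertical axis, ± SE) at P21 and P35 with libraries scaled by TMM (black), by RLE (blue) or by library totals (red), for 7 genes. The red dashed line is the median of all genes on library totals, 0.20 at P21 and 0.44 at P35, and *Pik3c2a* lies below it and *Vac14* above it.

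The wider pathway was followed through 6 lists of related genes, here for KO against WT at each age. Of 6 partners of the Vps34 complex, 0 were called at any age. The closest was *Nrbf2*, a subunit of the autophagy complex of Vps34, with log2 fold changes of 0.55 (SE 0.104, adjusted P=0.00662) at P21 and 0.51 (SE 0.102, adjusted P=0.00382) at P35. Of 14 myotubularin family genes, 0 were called at P1, and *Mtm1* alone was called at P14 and P21. At P35 *Mtm1* and *Mtmr10* (-0.84, SE 0.0935) fell and *Mtmr11* (0.88, SE 0.194) rose. *Mtmr10* and *Mtmr11* are inactive relatives of the phosphatases. The median log2 fold change of this list at P35, *Mtm1* included, was -0.35, beside 0.04 over all genes tested.

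None of 9 class I PI 3-kinase genes was called for KO against WT at any age (median -0.20 at P35). Among 10 PI4 and PIP kinases 2 were called, both at P35: *Pip5k1c*, which makes PI(4,5)P2, fell (-0.62, SE 0.0673) and *Pi4k2b*, a type II PI 4-kinase, rose (0.61, SE 0.144). Of 14 other phosphoinositide phosphatases, *Ocrl*, a 5-phosphatase, fell at P35 (-0.61, SE 0.121) and 0 were called earlier. Among 18 genes whose products bind PI3P or PI(3,5)P2, 4 were called, all at P35. *Hgs*, an endosomal sorting protein, rose (0.88, SE 0.117), *Zfyve9*, an adaptor of TGFβ receptors, fell (-0.70, SE 0.103), and *Zfyve26* (-0.66) and the lysosomal channel gene *Tpcn1* (-0.59) fell too. *Nrbf2*, *Mtmr11*, *Zfyve26* and *Tpcn1* were named after their values had been seen. At P35 the called genes were 3 of 14, 2 of 10, 1 of 14 and 4 of 18, to be read against 16% of all genes. The Vps34 partners (0 of 6) and the class I genes (0 of 9) belong to the same reading. The 3 of 14 include *Mtm1*, the gene disrupted in the KO mice, whose call was set by the design. On library totals, *Mtmr10* (-0.44), *Pip5k1c* (-0.22), *Ocrl* (-0.21), *Zfyve9* (-0.29), *Zfyve26* (-0.26) and *Tpcn1* (-0.18) kept their direction and were not called, and *Mtm1*, *Hgs*, *Mtmr11* and *Pi4k2b* remained called.

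Across the 32 libraries, the members did not move as 1 group. Pearson correlations of log2 CPM were -0.84 between *Pik3c2a* and *Vac14*, 0.73 between *Pik3c2b* and *Vac14*, -0.57 between *Pik3c2a* and *Pik3c2b* and 0.69 between *Pik3r4* and *Fig4*. *Pik3c3* and *Pik3r4* reached 0.48 and *Pikfyve* and *Fig4* 0.31. All libraries share the differences of age and genotype, so these values describe the series and carry no P-value.

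The genes most like each member were found in the same way among 18583 genes. *Vac14* was closest to *Zdhhc18* (r=0.97) and *Cdk2ap2* (r=0.95), and *Pik3c2a* to *Tug1* (r=0.93) and *Map4k3* (r=0.90). *Pik3c3* was closest to *Tacc2* (r=0.91) and *Dnajb12* (r=0.89), *Pik3c2b* to *Trmt12* and *Naif1* (both r=0.89), and *Pik3r4* to *Gtf3c1* (r=0.89) and *Tfip11* (r=0.86). *Pikfyve* (*Sdad1*, r=0.76, and *Prdm10*, r=0.74) and *Fig4* (*Zfyve26*, r=0.76, and *Tbc1d9b*, r=0.73) had no gene as close. Most of these names depend on the measure, since Spearman correlation kept 5 of the 14.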

How the data were processed

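TA muscle RNA of 4 mice per genotype and age (P1, P14, P21 and P35) was analyzed, 1 library per mouse. Per the labels and the methods, the authors prepared poly(A) RNA with a directional kit, aligned paired reads to GRCm38 with STAR 2.6.1 and deposited expected counts per gene made by RSEM 1.2.22. These estimated counts were neither scaled nor pooled by the authors, and 4.26% of the values were not whole. The methods also name HTSeq as counter. The annotation release and the strand setting of the counting are not given in the sources used here. Of 54838 genes, 54723 had a symbol and an exon length in GENCODE M21. The table had 0 unused columns of values.

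Counts were rounded and analyzed in R 4.3.3 with edgeR 4.0.16 (filterByExpr, TMM, glmQLFit and the two-sided glmQLFTest). P-values were adjusted by Benjamini-Hochberg over the genes tested. Pairwise fits held the 8 libraries compared, and interactions all 32. Adjusted P-values in the text are from these fits, and intervals of fold changes are at 95%. Genes were called by edgeR alone, whereas the study used both edgeR and DESeq2, at the cut-offs of an adjusted P under 0.01 and, outside interactions, an absolute log2 fold change over 0.585. Levels per kb are CPM divided by the summed length of merged exons. Log2 ratios used counts + 0.5, and likeness used Pearson correlation of log2 CPM with a prior count of 2. The fits were tested on simulated counts. Figures were made with python 3.11.15 and matplotlib 3.10.9.

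The members, lists and tests were chosen with earlier results of these data known. The text names all members, *Mtm1*, the 2 called genes with the smallest adjusted P of each list and age, and the 2 genes most like each member with a mean of at least 1 CPM. Genes outside this rule are named as such. Alternatives were DESeq2 1.42.0, RLE factors, library totals, no filter, at least 10 counts in every library, 1 fit of all 32 libraries, blocking by replicate number, unrounded counts, edgeR with legacy = FALSE, a looser threshold and leaving out each library. The comparison of P35 with P1 as an interaction was added after seeing the data. Totals of 49321035 to 85631408 counts leave genes under 3 counts undetected. Intervals of counts cover counting error only, as no molecular identifiers are named. No replicates agreed within sampling noise (chi-square per degree of freedom at least 10.5). Whether the mice of a group shared litters is not stated.

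The replicate numbers come from the labels. Same-numbered WT and KO libraries deviated together at P14 (r=0.295 to 0.731 in 4 of 4 pairs), and not at P1 (0 of 4 over 0.1), P21 (2 of 4) or P35 (2 of 4).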

Additional observations from a re-analysis of the deposited data

Results flagged for a closer look

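Each group of 4 libraries was screened for a library far from the other 3 (90 groups, of which chance alone gives about 1 in 20). *Pik3c2a* at 30.1 CPM, *Pik3c3* at 15.4 CPM and *Pik3r4* at 12.7 CPM stood apart in KO replicate 4 of P1, the library with lower markers of fibers and of most other cell types and more *Mtm1* than the other KO libraries of its age. *Pikfyve* read 18.3 CPM in KO replicate 1 of P21, and *Fig4* read 12 CPM in KO replicate 3 of P14. The log2 ratio of *Pik3c3* to *Pik3r4* was -0.0115 in WT replicate 3 of P35, below its group. In KO replicate 4 of P14 the log2 ratios to *Vac14* were the lowest of their group, at -1.06 for *Pikfyve* and -1.17 for *Fig4*. The part of library quality in these values was not tested.

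The KO effect differed between P35 and P1 by -0.84 for *Pik3c2a* and by 0.71 for *Vac14* on the log2 scale, both called by edgeR in the interaction added after seeing the data. *Vac14* was lower in each KO library than in each WT library at P1 (log2 fold change -0.16) and higher in each at P14 (0.30), P21 (0.50) and P35 (0.56). Of these, the difference from P1 was tested at P14 (not called) and at P35 (called), and that of P21 from P1 was not tested. The log2 ratio of *Pikfyve* to *Vac14* differed by 0.16 at P1 and by -0.47, -0.52 and -0.50 at P14, P21 and P35, again with no overlap at any of them; the difference between ages was not tested for the ratio.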

How the results depend on the processing

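Which members were called for KO against WT at P1 and P14, and *Pik3c2a* at P35, did not depend on the tool, the filter, the rounding, the fit of all 32 libraries or the replicate block. Scaling by library totals shifted all genes together: measured from the median of all genes tested, 0 of 73 values of members changed direction, and apart from *Pik3c2g* (0.08) they moved by at most 0.028. Such a shared shift fixes this outcome in advance, so it does not tell which scaling is right. On library totals, 1 gene was called at P21 (*Vac14*), 6 were called from P1 to P14 in WT and 5 in KO. The log2 fold changes that changed direction on library totals, for KO against WT, were 0.0247 for *Pikfyve* and 0.0181 for *Fig4* at P1, 0.142 for *Pik3r4*, 0.174 for *Pikfyve* and 0.15 for *Fig4* at P21 and 0.332 for *Pik3c3*, 0.255 for *Pik3r4* and 0.196 for *Fig4* at P35. For P14 against P1 they were -0.291 for *Pik3c2b*, -0.289 for *Pik3c3*, -0.596 for *Pik3r4*, -0.681 for *Pikfyve*, -0.65 for *Fig4* and -0.599 for *Vac14* in WT, and -0.461 for *Pik3c3*, -0.639 for *Pik3r4* and -0.0874 for *Vac14* in KO. For P21 against P14 they were -0.0853 for *Pik3c2b*, -0.112 for *Pik3r4* and -0.00771 for *Pikfyve* in WT and -0.0129 for *Pik3c3* in KO. For P35 against P21 they were -0.0423 for *Fig4* in WT and 0.0117 for *Pik3c2b*, 0.109 for *Pik3c3* and 0.00365 for *Fig4* in KO. The differences of the KO effect that changed direction were 0.189 for *Pik3c2b*, 0.108 for *Pik3c3*, 0.114 for *Pik3r4* and 0.0458 for *Fig4* between P35 and P21, and 0.189 for *Pik3c3*, 0.277 for *Pik3r4* and 0.178 for *Fig4* between P35 and P1.

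Other settings turned only values near 0, and the cause was not tested. With at least 10 counts in every library, P14 against P1 gave -0.00247 for *Pikfyve* in WT and -0.0271 for *Pik3r4* in KO. *Pik3c2g* then has no value, so that 0 genes were called in WT and 1 in KO. *Fig4* for P14 against P1 in KO was 0.00906 with DESeq2, 0.0098 with RLE factors and 0.0116 in the fit of all 32 libraries. *Vac14* for P35 against P21 in KO was -0.00674, -0.00676 and -0.0133 in the same settings and -0.00255 with the replicate block. Without a filter the difference of the KO effect on *Pik3c2b* between P35 and P21 was 0.00279. At an adjusted P under 0.05 and any fold, 2 genes passed at P21, 2 at P35, 5 from P1 to P14 in WT and 1 from P14 to P21 in WT. From P14 to P21 in KO, 1 gene was called with DESeq2, with RLE factors, in the fit of all 32 libraries and with the replicate block, since *Pik3c2a* missed the fold limit in the first 3 (-0.579, -0.578 and -0.57) and the P-value limit under the block (-0.597, adjusted P=0.0114 by edgeR). Spearman correlation kept 5 of the 14 genes most like a member.

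The replicate block changed no other call of a member, nor did it place *Vac14* at P14 under 0.01. Paired by replicate number, 0 of the 9 log2 ratios passed, as the smallest p an exact sign-flip permutation allows is 0.125. Across all genes the block gave 98 calls in place of 5 at P14, 2 in place of 8 at P1, 144 in place of 848 from P14 to P21 in WT and 487 in place of 1097 in KO, and 175 in place of 368 from P21 to P35 in WT and 80 in place of 631 in KO; between ages the animals differed and the numbers mark no pairs. Other all-gene counts that moved were 93 at P1 and 53 at P14 with DESeq2, 14 and 10 without a filter, 2 at P1 in the fit of all 32 libraries, and, on library totals, 1157 in place of 709 at P21 and 4676 in place of 2496 at P35. For the steps between ages, DESeq2 called 1340 (WT) and 1765 (KO) genes from P14 to P21 and 851 and 1199 from P21 to P35, and the fit of all 32 libraries 1703 from P14 to P21 in KO and 744 (WT) and 1179 (KO) from P21 to P35. For the differences of the KO effect, DESeq2 called 11, 222 and 325 genes over the 3 steps in place of 3, 79 and 86. The block gave 1 for the first step and 156 for the third, library totals 167 for the second and 4936 in place of 2953 for P35 against P1, no filter 53 for the third, and a fit of only the 16 libraries of the ages compared 8 for the first and 9 for the third.

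With 1 library left out at a time, members called ranged from 1 to 2 at P35 (*Vac14* added), from 1 to 2 for P14 against P1 in WT, from 2 to 3 in KO and from 0 to 2 for P21 against P14 in KO, and log2 ratios with an exact permutation p under 0.05 from 5 (without WT replicate 3 of each age) to 10. Log2 fold changes that changed direction ranged as follows. For KO against WT they were -0.00748 to 0.145 for *Pik3c2a*, -0.095 to 0.0663 for *Pik3r4*, -0.0343 to 0.0072 for *Pikfyve* and -0.0465 to 0.0204 for *Fig4* at P1; -0.0729 to 0.215 for *Pik3c2b* and -0.0165 to 0.126 for the log2 ratio of *Pik3c3* to *Pik3r4* at P14; -0.0832 to 0.0929 for *Pik3c3*, -0.0966 to 0.00754 for *Pik3r4* and -0.097 to 0.0331 for *Pikfyve* at P21; -0.00644 to 0.0983 for the log2 ratio of *Pik3c3* to *Pik3r4* at P35. Between ages they were -0.047 to 0.112 for *Pik3r4* and -0.0452 to 0.0186 for *Fig4* for P14 against P1 in KO; -0.0337 to 0.236 for *Pik3c2b* and -0.0538 to 0.00652 for *Fig4* for P21 against P14 in WT and -0.0977 to 0.075 for *Pik3c3* in KO; -0.0146 to 0.0642 for *Fig4* for P35 against P21 in WT and -0.0855 to 0.0854 for *Pik3c3* and -0.0698 to 0.0571 for *Vac14* in KO. For differences of the KO effect they were -0.0307 to 0.255 for *Pik3c2b* between P21 and P14, and -0.0976 to 0.0316 for *Pik3c2b*, -0.0146 to 0.144 for *Pikfyve* and -0.025 to 0.0968 for *Vac14* between P35 and P21. *Pik3c2a* at P35 stayed called throughout, between -0.808 and -0.67.

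Depth limits *Pik3c2g* after P1, and 4 mice per group limit the rest: at P35 the intervals of *Pik3c3* and *Pikfyve* leave room for small differences. Transcript counts carry no measure of the kinases' protein or lipid products.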
